A study of Homo sapiens with 6 samples.

Results

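Ribosome biogenesis factors are the proteins that make, modify, cleave, fold and export ribosomal RNA while it is assembled with ribosomal proteins. The group described here was chosen by name, as 36 gene symbols of well-known factors out of 24462 symbols in the count files. The rule uses no measured value, but the symbols were chosen with earlier results of these data known. All 36 were present and 35 had enough counts to be tested. The cells were H460, an established line grown from a human large-cell lung tumour. RNA was sequenced from the 3′ ends of polyadenylated transcripts in 6 libraries. In 3 of them (depleted) the cells had been kept for 24 h in RPMI 1640 medium without glutamine and with dialyzed fetal bovine serum, and in the other 3 (replete) the same cells had glutamine. The labels do not say whether the replete cells also had dialyzed serum over those hours, so glutamine and serum cannot be told apart from the labels alone. Nothing in them states that replicates were separate cultures, and p-values therefore measure only how far these samples spread, which may be technical.

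Ribosomes are built mainly in the nucleolus, where RNA polymerase I transcribes a long precursor of ribosomal RNA. Small nucleolar RNAs guide enzymes to the bases to be modified: box C/D particles carry the methyltransferase fibrillarin, and box H/ACA particles carry the pseudouridine synthase dyskerin. The precursor is folded and cut inside large assemblies, the small subunit processome among them, before both subunits are exported to the cytoplasm. Growing tumour cells spend much of their RNA and protein synthesis on this pathway, and many of its genes are known targets of the transcription factor MYC.

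Libraries held 7550849 to 10914899 counts. Levels are given as CPM, a gene's counts per 1000000 counts of its library, and 3 counts stood for 0.275 to 0.397 CPM, a floor that covers counting error only. Replicates were not copies of one another: chi-square per degree of freedom was 1.51 to 3.92 between replicates other than depleted replicate 2, and 11.7 and 19.4 where it was in the pair. That library stood apart, so values without it are given where they change a call. The epithelial markers summed to 2067 to 2092 CPM in replete and 761 to 881 CPM in depleted libraries, nearly all from KRT8, KRT18 and KRT19, of which 2 were lower in depleted cells. EPCAM and CDH1 had at most 4 counts in a library, and the markers of lung epithelium, blood and endothelium together summed to at most 3.44 CPM in any library, with CDH5 and VWF at 0. Of these NKX2-1, a lung lineage factor, was called higher (log2 fold change 2.83, adjusted p = 0.000209 by edgeR) at 1.38 to 2.63 CPM in depleted and 0.132 to 0.443 CPM in replete libraries. The 5 fibroblast markers summed to 34.8 to 110.4 CPM in depleted and 18.5 to 32.0 CPM in replete libraries, 2 of the 4 tested were higher in depleted cells, and the part of these marker lists in the results was not tested. In bulk RNA, fewer cells of a type and less RNA per cell cannot be told apart.

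The ribosome biogenesis factors did not move as a block. With trimmed-mean (TMM) scaling, which sets the bulk of genes to no change, 15 of the 35 tested factors rose and 10 fell in edgeR's quasi-likelihood test at an adjusted p of 0.05, and 10 did not pass. The share that rose, 42.9%, stood beside 39.1% of all 12739 genes tested, and the share that fell, 28.6%, beside 39.4%. In either direction 71.4% of the factors were called, against 78.6% of all genes, so calls were common in this comparison for any gene. The median log2 fold change of the factors was 0.08, against −0.02 over all genes, and their median absolute log2 fold change was 0.47, against 0.90. Changes of over 2-fold were called upward in 6 factors, where all genes gave 21.8%, and downward in 3, where all genes gave 23.7%. In CPM, the depleted libraries were all above the replete libraries in 11 factors and all below in 15, and the ranges overlapped in 9. Ranges lay apart in 74.3% of the factors, beside 81.0% of all genes, of which 33.2% had depleted and 47.8% replete libraries above. Scaled by library totals alone, 11 factors were higher and 15 lower, beside 32.4% and 46.5% of all genes. The median of all genes then lay at −0.25, so fold changes in the text are relative to TMM scaling and CPM values to library totals.

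**Figure D1:**
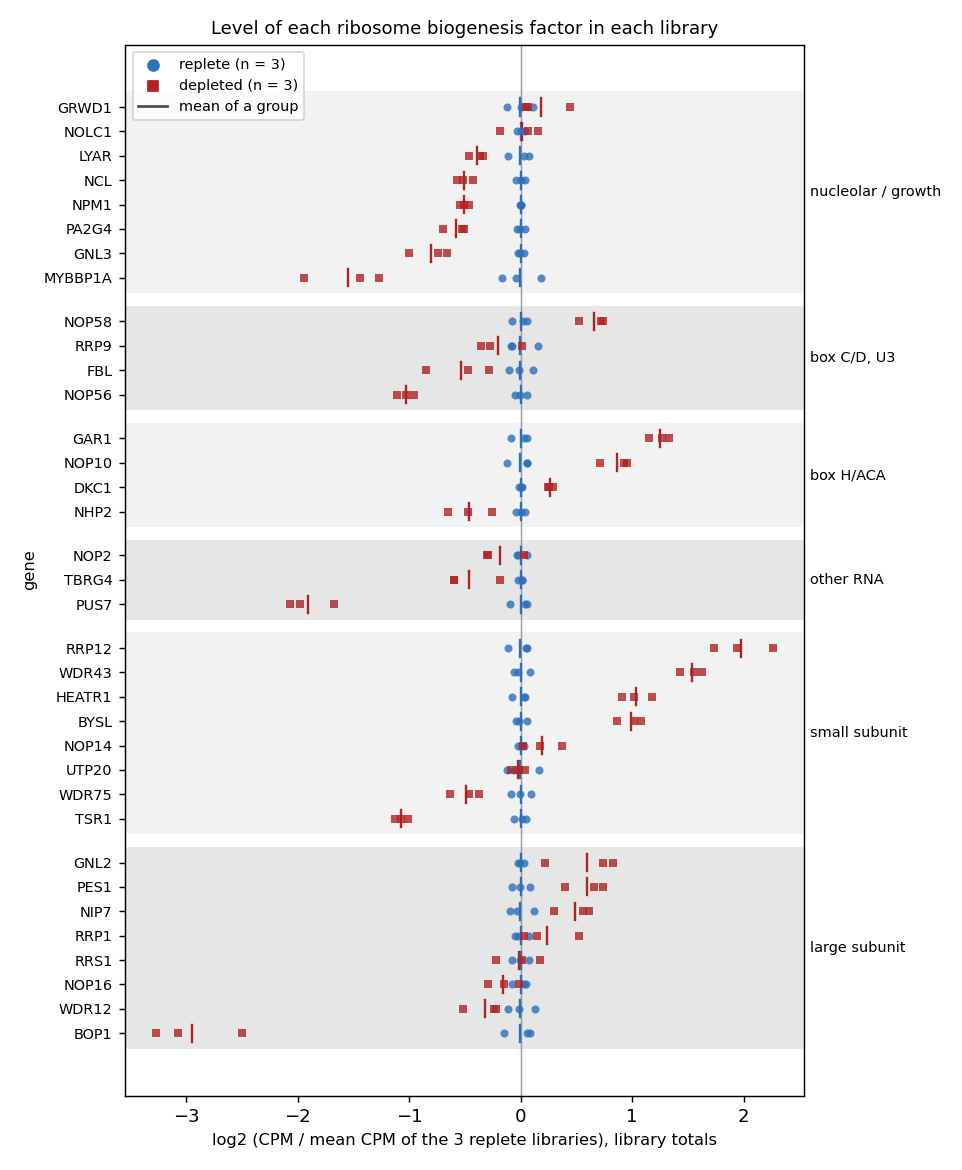
Level of each of the 35 tested factors in each library, as log2 of its CPM over the mean CPM of the 3 replete libraries. Circles are replete libraries, squares are depleted libraries and bars are group means, with genes grouped by role. RRP12, WDR43 and GAR1 lie farthest to the right and BOP1, PUS7 and MYBBP1A farthest to the left, while RRS1 and UTP20 lie around 0.

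The promoters of many factors share the letters CACGTG, the E-box that MYC and its partner MAX are known to bind. In the RefSeq promoter windows on GRCh38.p14 (250 bases before to 50 after each annotated start), 31 of the 36 genes had an entry, and NOLC1, NOP58, RRP12, BOP1 and RRS1 did not. The motif reads the same on both strands. It was found in 15 of the 31 genes (48.4%), against 12.8% of 9485 tested genes with an entry and 8.77% of all 27305 genes with an entry. Counted by window, the motif was in 41.7% of the 36 windows of the factors, against 7.26% of all 35116 windows of this length. In 14 of the 15 it began within 50 bases of the start site, and in 11 it began after it. The motif was in 7 of 12 factors that rose, 3 of 9 that fell and 5 of 9 that did not pass, so it occurred in each of these classes. For comparison, CCGGAAG, a core sequence of ETS family sites, searched on both strands, was in 10 of the 31 genes (32.3%) and in 22.4% of tested genes. The 30-base windows below are shown because they hold this shared feature in the factors with the largest changes that have one, 4 that rose, 3 that fell and 1 that did not pass. Capitals mark the motif, and each is read 5′ to 3′ on the strand of its gene.
WDR43 (chr2:28894658-28894687, plus strand, rose): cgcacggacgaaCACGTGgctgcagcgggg
GAR1 (chr4:109815781-109815810, plus strand, rose): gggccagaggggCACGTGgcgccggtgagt
BYSL (chr6:41921515-41921544, plus strand, rose): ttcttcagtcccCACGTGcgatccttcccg
NOP10 (chr15:34343130-34343159, minus strand, rose): gaaattgacgaaCACGTGacgcggtcgggc
PUS7 (chr7:105522226-105522255, minus strand, fell): gtcgctgcgccgCACGTGtgcgagcccggc
MYBBP1A (chr17:4555340-4555369, minus strand, fell): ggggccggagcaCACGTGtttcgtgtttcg
GNL3 (chr3:52686026-52686055, plus strand, fell): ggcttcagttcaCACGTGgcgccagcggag
FBL (chr19:39846356-39846385, minus strand, not called): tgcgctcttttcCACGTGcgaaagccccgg
MYC itself stood at 114, 57.4 and 96.1 CPM in the depleted libraries and at 63.4, 58.5 and 58.0 CPM in the replete libraries. These ranges overlapped, with depleted replicate 2 the lowest of all 6 libraries. MYC was called higher with TMM scaling (log2 fold change 0.80, adjusted p = 0.0193 by edgeR) and not with library totals alone (0.58, adjusted p = 0.0742). The part of MYC in the changes of the factors was not tested, and a match of letters is not a binding site.

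Among the abundant nucleolar proteins and growth-linked factors, more members fell than rose. NPM1, nucleophosmin, a histone and ribosome chaperone of the outer nucleolus, stood at 2838, 2847 and 2859 CPM in replete and at 1999.7, 1947 and 2063 CPM in depleted libraries. NCL, nucleolin, an RNA-binding protein of the early precursor, stood at 1331, 1256 and 1299.9 CPM in replete and at 872, 907 and 963 CPM in depleted libraries. All depleted libraries were below all replete libraries for both genes. Their log2 fold changes were −0.28 for NPM1 (SE 0.05, adjusted p = 0.000300 by edgeR) and −0.28 for NCL (SE 0.06, adjusted p = 0.000985 by edgeR). An added fit took out, library by library, how counts vary with a transcript's GC content and length. Its curve was fitted to CPM by library totals, and TMM factors were applied as well. The overall level of each library was thus corrected by both. The median of all genes with a known GC content and length moved from −0.02 to 0.23. Values of this fit are to be read against that median, whereas its adjusted p-values test against no change. In that fit NCL lost its call (log2 fold change −0.09, adjusted p = 0.202), and NPM1 kept it at −0.20 (adjusted p = 0.00776). Both lay below that median. PA2G4, the growth-regulated protein EBP1 that associates with ribosomes, fell from 618 ± 16.5 to 415 ± 28.5 CPM (mean ± SD, n = 3 per group, log2 fold change −0.35).

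MYBBP1A, a nucleolar MYB-binding protein, had the largest change of this role. It measured 20.2, 15.8 and 17.2 CPM in replete and 6.50, 7.33 and 4.61 CPM in depleted libraries, with no overlap. Its log2 fold change was −1.30 (SE 0.18, adjusted p = 2.05e-05 by edgeR), a fall of 2.46-fold. GNL3, the nucleolar GTPase nucleostemin of stem and tumour cells, measured 49.6, 51.0 and 49.1 CPM in replete and 31.6, 24.9 and 29.9 CPM in depleted libraries. It fell by 0.57 on the log2 scale (SE 0.10, adjusted p = 0.000251 by edgeR). LYAR, a zinc-finger protein of the nucleolus, had a log2 fold change of −0.16 (adjusted p = 0.175 by edgeR) and was called lower with library totals alone, at −0.39 (adjusted p = 0.00428).

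Of this role 2 genes passed upward with TMM scaling, and neither passed with library totals alone. NOLC1, the snoRNP chaperone Nopp140, measured 196, 201 and 206 CPM in replete and 224, 177 and 209.6 CPM in depleted libraries, so the ranges overlapped and depleted replicate 2 was the lowest of all 6. The log2 fold change of 0.24 (adjusted p = 0.0182 by edgeR) was 0.02 with library totals alone (adjusted p = 0.852). It also lost its call when any 1 of the other 5 libraries was left out, with adjusted p from 0.0508 without replete replicate 3 to 0.111 without replete replicate 1, between which lay 0.0618 and 0.0584 without depleted replicates 1 and 3 and 0.0878 without replete replicate 2. GRWD1, a WD-repeat chaperone of histones and of a large-subunit protein, measured 31.6, 26.8 and 29.3 CPM in replete and 30.6, 39.6 and 30.1 CPM in depleted libraries. GRWD1 had a log2 fold change of 0.42 (adjusted p = 0.00873 by edgeR), 0.19 with library totals alone (adjusted p = 0.176) and 0.34 without replete replicate 2 (adjusted p = 0.0571).

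The core proteins of the box C/D particle went in opposite directions. NOP58, one of the paired scaffold proteins that hold the guide RNA, rose from 159.7, 149 and 164 CPM in replete to 263, 227 and 259 CPM in depleted libraries. NOP56, its paralog on the other arm of the particle, fell from 148, 137 and 141 to 69.7, 73.4 and 65.9 CPM. Neither gene's groups overlapped. The log2 fold changes were 0.89 for NOP58 (SE 0.08, adjusted p = 2.15e-07 by edgeR) and −0.80 for NOP56 (SE 0.08, adjusted p = 8.58e-07 by edgeR). FBL, the methyltransferase fibrillarin, measured 513, 547 and 594 CPM in replete and 305, 452 and 396 CPM in depleted libraries. All depleted libraries were lower in CPM, but its log2 fold change of −0.29 did not pass with TMM scaling (adjusted p = 0.0761 by edgeR). Library totals alone gave −0.52 (adjusted p = 0.00620). Correction for GC and length gave 0.13 (adjusted p = 0.326), beside a median of 0.23 over all genes in that fit. FBL was called lower by limma-voom with TMM scaling (−0.31, adjusted p = 0.0385). DESeq2's own test, with DESeq2 size factors, called it lower too (−0.27, adjusted p = 0.0459). RRP9, which marks the U3 particle of the small subunit processome, had overlapping ranges of 18.9 to 22.4 CPM in replete and 15.7 to 20.3 CPM in depleted libraries, at a log2 fold change of 0.03 (adjusted p = 0.874 by edgeR) that became 0.62 after that correction (adjusted p = 0.000391).

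In the box H/ACA particle, 3 of the 4 core proteins rose and none passed downward with TMM scaling. GAR1, which binds the catalytic subunit and helps release the substrate, measured 87.6, 79.2 and 85.8 CPM in replete and 202, 187 and 212 CPM in depleted libraries. This was a rise of 2.78-fold (log2 fold change 1.48, SE 0.08, adjusted p = 2.02e-09 by edgeR). NOP10, a small protein that links the catalytic subunit to the guide RNA, measured 102, 89.9 and 101 CPM in replete and 186, 189.7 and 159.8 CPM in depleted libraries, or 1.10 on the log2 scale (SE 0.09, adjusted p = 1.20e-07 by edgeR). DKC1, the pseudouridine synthase dyskerin itself, rose by less. It measured 289, 288 and 284 CPM in replete and 342, 350.0 and 339.9 CPM in depleted libraries, among the tightest values of the group, at a log2 fold change of 0.49 (SE 0.06, adjusted p = 9.13e-06 by edgeR). NHP2, the fourth core protein, lay the other way at 102, 105 and 108 CPM in replete and 66.8, 88.0 and 75.6 CPM in depleted libraries. Its log2 fold change of −0.23 missed the threshold (adjusted p = 0.0545 by edgeR). NHP2 was called lower with library totals alone at −0.46 (adjusted p = 0.000864) and without depleted replicate 2 at −0.34 (adjusted p = 4.39e-05). Correction for GC and length gave 0.15 (adjusted p = 0.135), beside a median of 0.23 over all genes in that fit.

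Of the remaining RNA enzymes, PUS7 had a clear change. PUS7, a pseudouridine synthase that acts on transfer and messenger RNA, measured 34.0, 33.5 and 30.6 CPM in replete and 10.3, 7.79 and 8.31 CPM in depleted libraries. Every depleted library was far below every replete library, and the log2 fold change was −1.66 (SE 0.13, adjusted p = 1.13e-07 by edgeR), a fall of 3.16-fold. NOP2, a methyltransferase of large-subunit RNA, measured 31.9 to 34.1 CPM in replete and 26.6 to 33.3 CPM in depleted libraries, at a log2 fold change of 0.04 (adjusted p = 0.741 by edgeR) that became 0.46 after correction for GC and length (adjusted p = 0.00105). TBRG4, also called FASTKD4, is known as a mitochondrial RNA-binding protein rather than a nucleolar one. Its log2 fold change was −0.22 with TMM scaling (adjusted p = 0.0998 by edgeR) and −0.45 with library totals alone (adjusted p = 0.00281). After correction for GC and length it was 0.28 (adjusted p = 0.0174), beside a median of 0.23 over all genes in that fit. TBRG4 was called lower without depleted replicate 2, at −0.37 (adjusted p = 0.000130).

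The small-subunit factors held the largest increases. RRP12, an export and maturation factor of HEAT-repeat type, measured 31.8, 35.7 and 35.6 CPM in replete and 115, 165 and 132 CPM in depleted libraries. Its log2 fold change was 2.22 (SE 0.13, adjusted p = 1.47e-08 by edgeR), a rise of 4.67-fold and the largest of the 35 factors. WDR43, a WD-repeat protein of the UTP-A part of the processome, which also supports transcription of the precursor, measured 139, 143 and 154 CPM in replete and 392, 427 and 449 CPM in depleted libraries, a rise of 3.41-fold (log2 fold change 1.77, SE 0.08, adjusted p = 2.87e-10 by edgeR). HEATR1, also of UTP-A, rose from 93.6 ± 4.11 to 192 ± 18.2 CPM (means of n = 3 libraries each, log2 fold change 1.26). BYSL, bystin, a late factor of the small subunit, rose from 39.7 ± 1.35 to 78.7 ± 6.01 CPM (log2 fold change 1.21). The depleted libraries were above the replete libraries in all 4 genes.

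Other members of the same machinery fell. TSR1, a GTPase-like factor that sits on the late small-subunit precursor, measured 117, 109 and 114 CPM in replete and 53.9, 51.8 and 56.0 CPM in depleted libraries, or −0.84 on the log2 scale (SE 0.08, adjusted p = 4.88e-07 by edgeR). WDR75, another UTP-A protein beside WDR43 and HEATR1, measured 105, 98.0 and 92.6 CPM in replete and 76.0, 63.3 and 71.4 CPM in depleted libraries. Its log2 fold change of −0.26 passed (adjusted p = 0.0176 by edgeR), but not without replete replicate 1 (−0.24, adjusted p = 0.0656). NOP14, a processome protein, was called higher at 0.42 (adjusted p = 0.00149 by edgeR) although its ranges overlapped, at 75.2 to 78.0 CPM in replete and 77.5 to 99.1 CPM in depleted libraries, and library totals alone gave 0.19 (adjusted p = 0.0781). UTP20, a large scaffold of the processome, measured 35.2 to 43.1 CPM in replete and 36.1 to 39.6 CPM in depleted libraries, at a log2 fold change of 0.21 (adjusted p = 0.0831 by edgeR). UTP20 was called higher without depleted replicate 2 (0.21, adjusted p = 0.0468). It was also called higher after correction for GC and length (0.26, adjusted p = 0.0344), beside a median of 0.23 over all genes in that fit.

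Large-subunit factors were also split, and the complex of PES1, BOP1 and WDR12, which processes the precursor of the large subunit, held both directions. BOP1, its central scaffold, measured 29.6, 28.9 and 25.0 CPM in replete and 3.30, 4.93 and 2.88 CPM in depleted libraries. These depleted values rest on 36, 43 and 25 counts, against 267, 229 and 189 counts in the replete libraries. The log2 fold change was −2.69 (SE 0.18, adjusted p = 2.07e-08 by edgeR), a fall of 6.44-fold and the largest change of the 35 factors in either direction. PES1, pescadillo, rose from 47.1, 41.9 and 44.1 CPM to 58.5, 73.9 and 69.8 CPM (log2 fold change 0.83, SE 0.11, adjusted p = 8.81e-06 by edgeR). WDR12 measured 40.1, 36.4 and 33.9 CPM in replete and 31.2, 25.8 and 31.6 CPM in depleted libraries, at a log2 fold change of −0.09 (adjusted p = 0.462 by edgeR), and was called lower with library totals alone (−0.32, adjusted p = 0.0202).

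GNL2, a nucleolar GTPase that accompanies the large subunit towards export, rose from 75.8, 77.0 and 78.8 CPM to 137, 89.9 and 129 CPM, with depleted replicate 2 closest to the replete libraries (log2 fold change 0.85, SE 0.13, adjusted p = 0.000103 by edgeR). NIP7, an early assembly factor, rose from 24.5 ± 1.90 to 34.5 ± 3.89 CPM (means of n = 3 libraries each, log2 fold change 0.72). RRP1, a nucleolar protein of the large-subunit precursor, was called higher at 0.47 (adjusted p = 0.00810 by edgeR) with overlapping ranges of 18.9 to 20.7 CPM in replete and 20.1 to 28.3 CPM in depleted libraries, and at 0.25 with library totals alone it did not pass (adjusted p = 0.122). RRS1, which brings the 5S ribonucleoprotein into the precursor, measured 59.3 to 65.9 CPM in replete and 53.5 to 70.3 CPM in depleted libraries, at a log2 fold change of 0.22 (adjusted p = 0.0638 by edgeR). It passed without depleted replicate 2 (0.32, adjusted p = 0.000297), with DESeq2 size factors (0.24, adjusted p = 0.0486) and after correction for GC and length (0.68, adjusted p = 3.94e-05). NOP16 had a log2 fold change of 0.08 (adjusted p = 0.444 by edgeR), or 0.49 after that correction (adjusted p = 0.000192). The median over all genes in that fit was 0.23. PPAN, a large-subunit factor known for its joint transcripts with its neighbour P2RY11, had 1 count over all 6 libraries and could not be tested. The joint entry PPAN-P2RY11 had 4 counts, whereas P2RY11, whose exons overlap those of PPAN on the same strand in GENCODE 29, had 363 to 461 counts per library. Whether reads of PPAN were counted there was not tested.

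Because the scaling moved several calls, partner genes were also compared as a ratio of their counts within each library, which needs no scaling between libraries. The ratio of NOP56 to NOP58 was 0.928, 0.918 and 0.865 in replete and 0.265, 0.324 and 0.255 in depleted libraries, 3.23-fold lower. The ratio of BOP1 to PES1 was 0.629 ± 0.0611 in replete and 0.0548 ± 0.0127 in depleted libraries (mean ± SD, n = 3 per group), 11.7-fold lower. The ratio of WDR43 to WDR75 was 1.33, 1.46 and 1.66 in replete and 5.15, 6.74 and 6.29 in depleted libraries, 4.08-fold higher. In these 3 pairs the depleted and replete libraries did not overlap.

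Within the H/ACA particle, GAR1 over DKC1 was 0.293 ± 0.0159 in replete and 0.583 ± 0.0452 in depleted libraries, and NOP10 over DKC1 was 0.340 ± 0.0243 and 0.518 ± 0.0416, whereas NHP2 over DKC1 was 0.367 ± 0.0133 and 0.223 ± 0.0280 (mean ± SD, n = 3 per group). In depleted cells GNL3 over GNL2 was 2.64-fold lower, FBL over NOP58 2.29-fold lower and WDR12 over PES1 1.89-fold lower. The exception was NPM1 over NCL, at 2.13, 2.27 and 2.20 in replete and 2.29, 2.15 and 2.14 in depleted libraries, which overlapped (log2 difference −0.0037). In 9 of the 10 pairs the groups did not overlap, beside 78.8% of all pairs of tested genes without a count of 0. DKC1, PES1 and NOP58 each stand in several pairs, so the pairs are not independent. Each of the 9 had an exact two-sided permutation p of 0.1, the smallest that 3 against 3 libraries can give, or 0.111 adjusted over the 10 pairs, so none could pass 0.05.

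**Figure D2:**
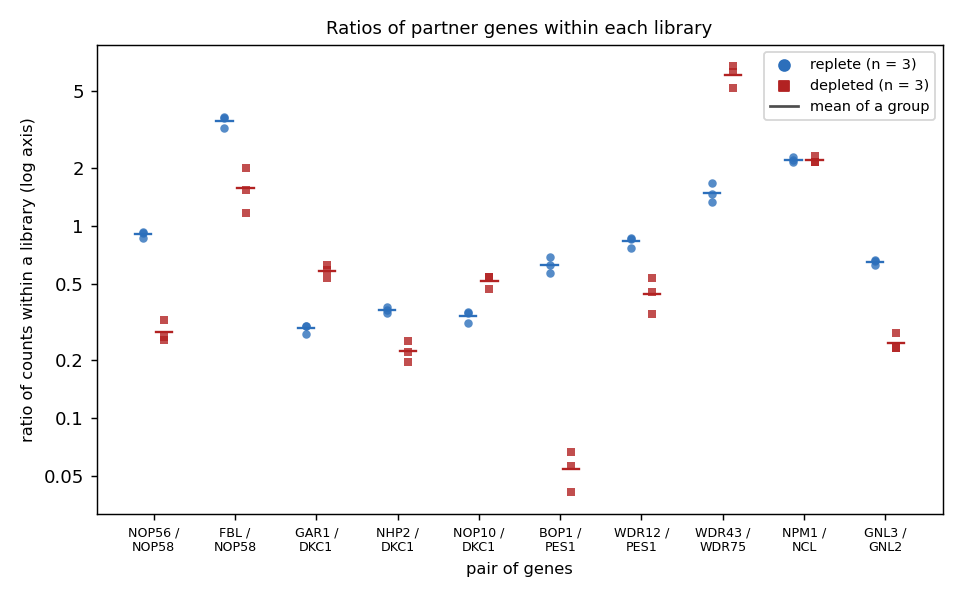
Ratio of counts of 10 pairs of partner genes within each library, on a log axis. Circles are replete and squares depleted libraries (n = 3 each) and bars are means. The groups lie apart in 9 pairs, most widely for BOP1 over PES1, and overlap for NPM1 over NCL.

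Of the 35 tested factors, 9 changed their call between TMM scaling and library totals alone. RRP1, NOLC1, GRWD1 and NOP14 went from higher to not called, and FBL, NHP2, WDR12, LYAR and TBRG4 went from not called to lower. RRP9, NOP16, RRS1, NOP2 and UTP20 passed with neither. After correction for GC and length 21 factors were higher and 9 lower, beside 46.9% and 32.3% of the 12003 tested genes with a known GC content and length. Genes at large also moved towards higher calls under this correction, where their median lay at 0.23. The level of each library was corrected there by both the curve and the TMM factors. With or without these changes, 9 factors that rose (NOP58, GAR1, NOP10, RRP12, PES1, WDR43, GNL2, BYSL and HEATR1) and 5 that fell (NOP56, BOP1, MYBBP1A, PUS7 and TSR1) had the same direction and the same call under every alternative that was run. The share of all genes that did so was not computed, so these counts cannot be set beside it.

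**Figure D3:**
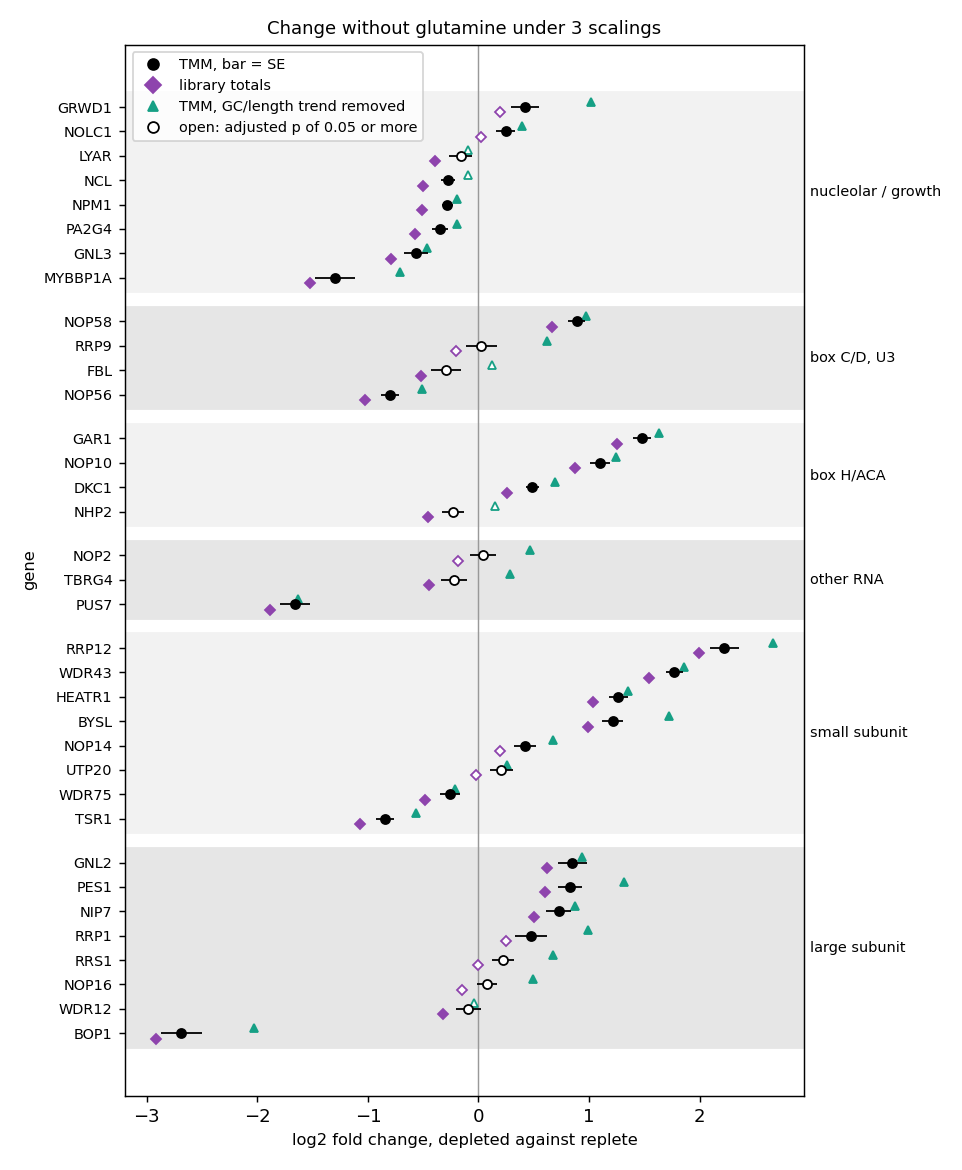
Log2 fold change of each of the 35 tested factors, depleted against replete, with TMM scaling (circles, bars are SE), library totals alone (diamonds) and TMM scaling with correction for GC content and length (triangles). Open symbols have an adjusted p of 0.05 or more. Factors near 0, such as RRP9, NOP2, TBRG4 and FBL, lie on both sides of 0 across the 3 settings, whereas RRP12 and BOP1 keep their side. Triangles are to be read against a median of 0.23 over all genes in that fit.

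Replicates of the factors were tighter in replete than in depleted cells. The median coefficient of variation over the 35 factors was 4.69% in replete and 11.3% in depleted libraries, beside 7.50% and 13.0% over all tested genes. Depleted replicate 2 was below both other depleted libraries in 13 factors and above both in 18, beside 38.8% and 40.6% of all tested genes. GNL2, at 67.6% of the mean of the other 2 depleted libraries, was its lowest factor in relative terms, and BOP1, at 159%, its highest. All 36 factors together took 0.770%, 0.759% and 0.777% of the counts in replete and 0.654%, 0.676% and 0.691% in depleted libraries. Without NPM1 and NCL the same sums were 0.348% to 0.361% in replete and 0.367% to 0.391% in depleted libraries, so the order of the groups was the reverse once these 2 genes were left out.

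The other genes of the pathway were 121 further factors listed by name. Of 120 tested, 73 rose and 30 fell (60.8% and 25.0%, beside 39.1% and 39.4% of all genes), with a median log2 fold change of 0.53, or 0.31 with library totals alone. RIOK3, an atypical kinase related to small-subunit maturation factors, rose from 38.4 ± 1.24 to 347 ± 11.6 CPM (means of n = 3 libraries each, log2 fold change 3.40). RPF2, the partner of RRS1 in loading the 5S particle, rose by 2.48 on the log2 scale, and the processome factor ESF1 by 2.23. In the other direction, RUVBL1, a helicase-like ATPase that helps assemble snoRNPs and also serves chromatin remodelling, fell from 259 ± 4.55 to 35.2 ± 1.60 CPM (log2 fold change −2.65). NOP53, counted under its older name GLTSCR2 and known as a large-subunit factor, fell by 2.16, and the helicase DDX54 fell by 2.14. Among the 36 further factors of the small subunit processome 27 rose and 6 fell, and among the 39 tested large-subunit assembly factors 21 rose and 11 fell. The 121 genes together took 0.932% ± 0.00957 of the counts in replete and 1.20% ± 0.0536 in depleted libraries (mean ± SD, n = 3).

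RNA polymerase I and its factors, 14 genes, gave 9 that rose and 4 that fell (64.3% and 28.6%, beside 39.1% and 39.4% of all genes), with a median log2 fold change of 0.49. With library totals alone 7 were higher and 5 lower, at a median of 0.26. RRN3, the initiation factor TIF-IA that couples growth signals to the polymerase, rose from 112 ± 9.20 to 238 ± 45.1 CPM (means of n = 3 libraries each, log2 fold change 1.31), and TAF1D, a subunit of the selectivity factor, rose by 1.15. POLR1E, a polymerase subunit, rose by 0.67. UBTF, which binds and opens the ribosomal RNA genes, fell by 0.44 and POLR1G, counted under its older name CD3EAP, fell by 0.78. The third group set beside the factors, the 79 cytosolic ribosomal proteins, had changes within −1.14 and 0.53 where called: 26 rose and 18 fell with TMM scaling and 7 and 34 with library totals alone, at median log2 fold changes of 0.08 and −0.15. These are 32.9% and 22.8% with TMM scaling, beside 39.1% and 39.4% of all genes, and with library totals alone the 7 are 8.86%, beside 32.4%, and the 34 stand beside 46.5% of all genes. Among them RPL14 had the largest change, from 663 ± 5.98 to 257 ± 6.50 CPM (log2 fold change −1.14), followed by RPL23 and RPL27, which each fell by 0.96. The largest increases were 0.53 in RPS28, 0.52 in FAU and 0.49 in RPS19. Ribosomal protein genes and NPM1 have many near-identical pseudogene copies, so their counts are less certain. Differences between these lists were not tested.

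**Figure D4:**
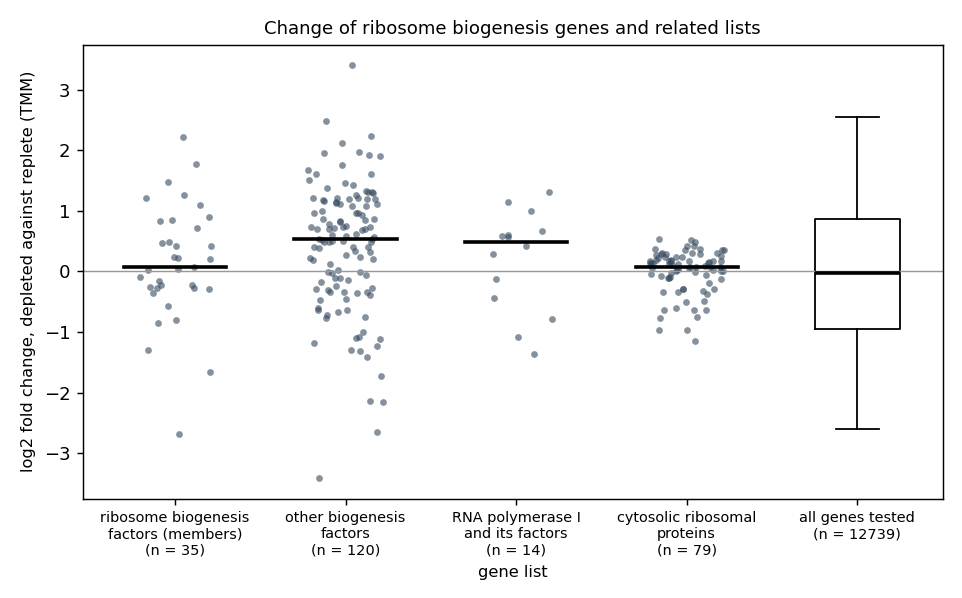
Log2 fold change (TMM scaling, depleted against replete) of each gene in 4 lists, with a bar at the median, beside a box for all 12739 tested genes (box, quartiles; line, median; whiskers, 5th and 95th percentiles). The medians were 0.08 for the 35 factors, 0.53 for 120 other biogenesis factors, 0.49 for 14 polymerase I genes and 0.08 for 79 ribosomal proteins.

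Some factors also carry small nucleolar RNA genes in their introns, so that 1 transcript yields both a protein and guides of the same pathway. In GENCODE 29, 9 of the 36 genes held snoRNA genes between their start and end on the same strand. Whether each lay in an intron was not checked. Of the 8 that were tested, NOP58, DKC1 and WDR43 rose, NOP56, GNL3, NCL and TSR1 fell, and TBRG4 did not pass with TMM scaling. These 3 and 4 of 8 stand beside 39.1% and 39.4% of all genes. The snoRNAs themselves are not polyadenylated, and their levels were not analysed here.

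Exons of 11 of the 36 factors overlap a counted gene on the opposite strand in GENCODE 29. The sources do not say that strand was used in counting, so reads from the shared stretches cannot be told apart. Whether these stretches hold the sequenced 3′ ends was not tested. LGALS8, which overlaps HEATR1, was higher in depleted cells too (log2 fold change 1.36), as was DNALI1, which overlaps GNL2 (0.72). NOP14-AS1, which overlaps NOP14, was also higher (0.48). Its means were 65.6 CPM in replete and 78.4 CPM in depleted libraries, close to 76.6 and 87.7 CPM for NOP14. Partners of factors that fell were lower as well, at −1.56 for SPNS2 beside MYBBP1A, −1.18 for GLT8D1 beside GNL3, and −2.08 and −0.97 for SGSM2 and SRR beside TSR1. COG8 went against its neighbour NIP7, at −1.36. Beside factors that were not called, HIGD2A (NOP16) was lower at −0.31 and RMND5B (NHP2) at −0.92, while CARF (WDR12) was not called. For PES1 the partner TCN2 was near the floor, with a mean of 1.06 CPM over replete and 0.498 CPM over depleted libraries. On the same strand, KCNJ14 overlaps GRWD1 and was higher at 3.25 (from 0.584 to 5.14 CPM). The part of shared reads in these fold changes was not tested. NOP58, GAR1, NOP10, RRP12, WDR43, BYSL, BOP1 and PUS7 had no exon shared with another counted gene on either strand, and NOP56 shared exons only with snoRNA entries on its own strand, with at most 9 counts in a library.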

How the data were processed

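Each of the 6 deposited files holds raw counts per gene symbol for 1 library, judged to be unnormalized because the values are whole and library totals differ. TRIzol RNA, 500 ng per library, went into the Lexogen QuantSeq 3′ kit, per the labels' protocols. Bowtie2, edgeR and hg19 are named per the submitters' processing notes, without version or role. The counting program, annotation and use of strand are not given in the sources used here.

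Counts of 286 symbols on several entries were summed, none of them a member. Genes were kept by filterByExpr (minimum count 10, total 15), scaled by TMM factors (0.917 to 0.929 in depleted, 1.08 to 1.09 in replete libraries) and tested two-sided with the robust quasi-likelihood fit of edgeR 4.0.16 in R 4.3.3, adjusted by Benjamini-Hochberg over all 12739 genes at 0.05. The test was run on simulated counts with changes planted in a small part of the genes and the same spread for every gene. This checked the code and not the error rates in these data, where 78.6% of genes were called. The members and lists were chosen with earlier results of these data known. By rule, values are given for the factor of each role with the highest mean CPM and the largest called change each way, for factors not called, called against the majority, or differing in call or direction between TMM and library totals, for the 3 largest called changes each way at a mean CPM of at least 10 in each other list, and for genes of the 10 pairs. HEATR1, BYSL, NIP7, MYC, POLR1A, TAF1A and TAF1B, the ETS motif and the snoRNA and overlap descriptions were chosen after the values were seen. Alternatives changed the scaling (library totals, DESeq2 size factors, upper quartile), the filter (none, or a mean CPM of at least 10), the test (DESeq2 1.42.0, limma-voom with limma 3.58.1, glmTreat at 1.5-fold), the samples (each library left out), the design (a replicate block) and the entry used per symbol. A correction chosen after seeing the data took out a loess curve (span 0.5) on GC content and on length, known from GENCODE 29 for 12003 tested genes and all 36 members. The curve was fitted to CPM by library totals, and TMM factors were kept in that fit. No gene positions are given apart from the promoter windows, because the references are on GRCh38 and the counts on hg19. Tables were made with Python 3.11.15.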

Additional observations from a re-analysis of the deposited data

How the results depend on the processing

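Counts of factors called higher and lower stayed within 1.5 times of 15 and 10 under every alternative except glmTreat against 1.5-fold, which called 9 higher and 5 lower. Which direction was commoner depended on the setting. Library totals and upper quartile factors each gave 11 higher and 15 lower, and a mean CPM of at least 10 gave 14 and 14. Leaving out 1 library gave 13 to 17 higher and 9 to 12 lower. Under glmTreat 3324 of all genes were higher, 47 of the other biogenesis factors were higher and 15 lower, 3 polymerase I genes were higher, and 0 ribosomal proteins were higher and 4 lower. For ribosomal proteins, library totals gave 7 higher and 34 lower, upper quartile factors 7 and 30, and a mean CPM of at least 10 gave 16 higher. Leaving out 1 library gave 17 (without replete replicate 1) to 35 (without depleted replicate 2) higher ribosomal proteins. The replicate block called 15 factors higher and 12 lower, FBL (log2 fold change −0.31, edgeR adjusted p = 0.00717) and NHP2 (−0.24, adjusted p = 0.0354) being the added calls. The replicate numbers were not taken as pairs, because deviations of same-numbered libraries correlated at 0.146, 0.0155 and 0.0371 and not every library correlated best with its own number. Factors that did not pass changed direction as follows, on the log2 scale. With library totals NOP2 was at −0.18, NOP16 at −0.15, RRP9 at −0.20, RRS1 at −0.0044 and UTP20 at −0.0206. With upper quartile factors NOP2 was at −0.16, NOP16 at −0.13, RRP9 at −0.18 and UTP20 at −0.00287. With a mean CPM of at least 10 NOP2 was at −0.0559, NOP16 at −0.0251 and RRP9 at −0.0746. With the GC and length correction FBL was at 0.13, NHP2 at 0.15 and TBRG4 at 0.28, beside a median of 0.23 over all genes in that fit. Leaving out 1 library gave NOP2 values from −0.0689 (without depleted replicate 2) to 0.113 and RRP9 values from −0.0874 (without depleted replicate 2) to 0.105. The median of all genes moved alongside, from −0.02 with TMM scaling to −0.25 with library totals. What else lay behind these changes was not tested. The 10 log2 ratios stayed within 1 SD under all 7 alternatives run on them, each library left out and a prior count of 0.5. Depth limits BOP1 and MYBBP1A most, at 25 to 71 counts per depleted library, and leaves PPAN unmeasured.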
